A study of Mus musculus with 8 samples.

Results

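The proteasome is the barrel-shaped protease that degrades proteins tagged with ubiquitin. In its core particle, rings of alpha subunits (*Psma* genes) gate the entry and rings of beta subunits (*Psmb* genes) carry the catalytic sites. A regulatory particle with a ring of ATPases (*Psmc* genes) and a lid and base of other subunits (*Psmd* genes) recognizes, unfolds and feeds in ubiquitinated proteins. In immune cells, and after interferon, the inducible beta subunits *Psmb8*, *Psmb9* and *Psmb10* take the places of the constitutive *Psmb5*, *Psmb6* and *Psmb7* to form the immunoproteasome, whose peptides are loaded on MHC class I. HIF-alpha proteins, which PHD enzymes hydroxylate when oxygen is present, are among the substrates that the proteasome removes.

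Proteasome subunit genes were taken as all protein-coding genes whose GENCODE M21 symbol begins with *Psma*, *Psmb*, *Psmc*, *Psmd*, *Psme*, *Psmf* or *Psmg* and a number. This rule found 50 of the 54838 Ensembl genes counted. They comprise 14 constitutive core subunits, the 3 immunoproteasome subunits, 2 tissue-specific core subunits, 6 ATPases and 11 non-ATPase subunits of the regulatory particle, 6 genes of activators and an inhibitor, 7 assembly chaperones and *Psmc3ip*. The last shares only the name, since it encodes a factor of homologous recombination. Of these, 49 had enough reads to be tested, and the thymic core subunit *Psmb11* (at most 0.0778 CPM in any sample) did not.

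RNA was sequenced from *iMLL-AF9* cells, mouse bone marrow leukemic stem cells by their labels, in which the *MLL-AF9* fusion oncogene is induced by doxycycline. All 8 samples carry this transgene on an otherwise wild-type C57BL/6 background, and they differ in treatment with IOX5, a selective inhibitor of the PHD enzymes, or with the vehicle DMSO (4 samples each, numbered 1 to 4). The dose, the duration of treatment and what the numbers stand for are not given for these samples in the sources used here, and the series' design text has them as preleukemic cells instead. Nothing says that the samples came from separate cultures or animals, so p-values measure the spread between these samples, which may be technical. Reads counted on genes ranged from 12343770 to 14116054 in DMSO and from 11351507 to 12708888 in IOX5, and CPM below are counts scaled by library size and TMM factor. Markers of leukemic progenitors (*Ptprc*, *Spi1*, *Kit*, *Cd34*, *Hoxa9*, *Meis1*, *Mpo*) were present in every sample with summed levels of 2221 to 4554 CPM in DMSO and 2496 to 5202 CPM in IOX5. *Mpo* was the most abundant of them in every sample. *Kit*, *Cd34* and *Mpo* were called higher with IOX5 in the paired fit described below (background 11.2% of all genes). They did not pass edgeR's test without pairing (adjusted p = 0.489, 0.689 and 0.814). *Cd34* and *Mpo* differed more between numbers than between treatments, as *Cd34* had 26.0, 23.2, 133 and 153 CPM in DMSO replicates 1 to 4.

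One library stood apart for these genes. IOX5 replicate 4 had the highest CPM of the 4 IOX5 samples for 43 of the 49 tested members (87.8%), against 26.4% of all 12405 genes tested. The summed CPM of all members was 8014, 8829, 8400 and 8446 in DMSO replicates 1 to 4 and 7349, 7552, 7557 and 8833 in IOX5 replicates 1 to 4. The sum was therefore below every DMSO sample in 3 of the IOX5 samples and at the level of the highest DMSO sample in the other one. Its read total (11631647) lay within the range of the IOX5 samples, and its share of reads that did not align to a single place was the highest of the 8 libraries. For members described singly, the log2 fold change without this library is added where it differs by more than 1.5 times or in sign, and its part in other results was not tested.

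Proteasome genes were abundant. The levels of all 14 constitutive core subunits in DMSO, as TPM computed on the length of the principal transcript, lay between 185 ± 4.88 (*Psma3*; SD, n = 4) and 688 ± 46.8 (*Psma7*), against a median of 25.2 TPM for all genes tested. The ATPases ranged from 229 ± 14.8 TPM (*Psmc6*) to 426 ± 17.0 TPM (*Psmc3*). The non-ATPases ranged from 135 ± 2.76 TPM (*Psmd11*) to 468 ± 19.2 TPM (*Psmd2*, the large base subunit that docks ubiquitin receptors). Each immunoproteasome subunit was below its constitutive counterpart per length, with 173 ± 33.1 TPM for *Psmb8*, 97.5 ± 9.39 TPM for *Psmb10* and 45.5 ± 8.01 TPM for *Psmb9*. For *Psmb8* this order depends on the transcripts chosen (1628 bases, and 899 for *Psmb5*). Its mean CPM in DMSO was 122, above the 106 of *Psmb5*. The activator genes ran from 4.58 ± 1.52 TPM (*Psme2b*) to 284 ± 12.6 TPM (*Psme3*). The assembly chaperones, which are needed only while the particle is being built, spanned 39.8 ± 1.79 TPM (*Psmg3*) to 92.7 ± 8.45 TPM (*Psmg1*). Subunits that stand in equal number in a particle thus did not have equal transcript levels per length. Shorter transcript isoforms would change these levels, since 1 principal transcript, the longest where there were several, stood for each gene. *Psma3* and *Psma6* had similar CPM in DMSO (229 and 231) but 185 and 511 TPM, on lengths of 2846 and 1042 bases. The lowest core level thus depends on that choice of transcript.

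**Figure D1:**
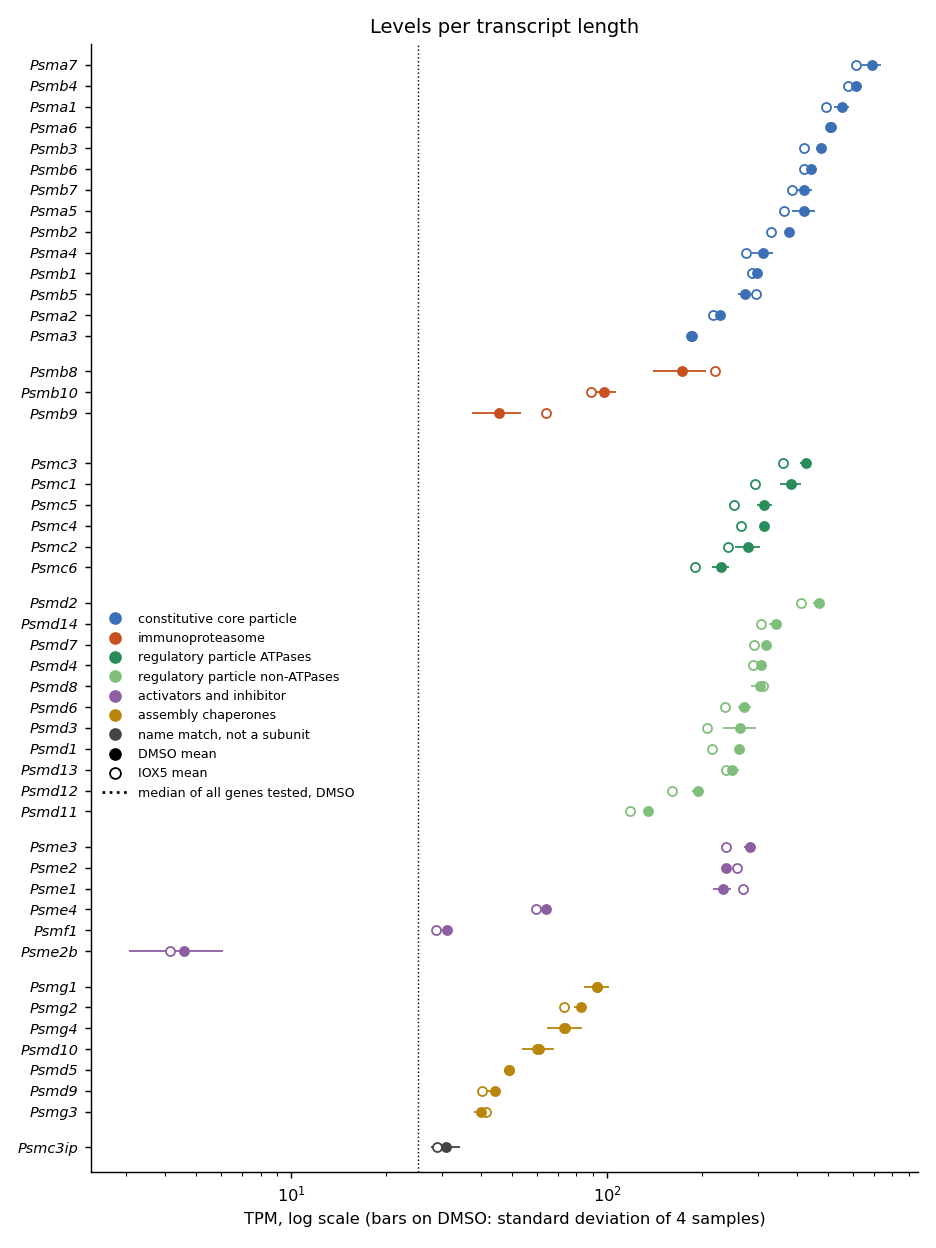
Level of each proteasome gene in TPM on a log axis, by functional group. Filled points are DMSO means with the standard deviation of 4 samples, open points are IOX5 means and the dotted line is the DMSO median of all genes tested (25.2 TPM). Core subunits lie above 185 TPM and assembly chaperones between 39.8 and 92.7 TPM in DMSO. *Psma8* and *Psmb11* are not drawn.

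The comparison of IOX5 with DMSO asks which proteasome transcripts change when PHD enzymes are inhibited. In the comparison without pairing of the samples, none of the 49 tested members passed an adjusted p of 0.05 in edgeR's quasi-likelihood test, either higher or lower. The background of such calls was 0.774% of all genes for higher and 1.25% for lower. At an unadjusted p under 0.05, 2 members were higher (4.08%, background 8.98%) and 12 lower (24.5%, background 11.2%). At an adjusted p under 0.1, *Psme1* was higher and *Psmc1*, *Psmd1* and *Psmd12* were lower (background 2.68% and 3.92%). DESeq2 called 2 higher (*Psmb9* and *Psme1*) and 5 lower (*Psmc1*, *Psmd1*, *Psmd3*, *Psmd12* and *Psme3*), against a background of 3.69% and 4.50%. With limma's voom 0 were called higher (at an unadjusted p under 0.05, the quasi-likelihood test gave 2) and 4 lower, namely *Psmc1*, *Psmc5*, *Psmd1* and *Psmd12* (background 3.43% and 4.92%).

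Since samples of equal number deviated in common, the number was also entered as a block in the fit. In this paired fit, 3 members rose and 9 fell. *Psmb8* and *Psmb9* of the immunoproteasome and *Psme1* of its activator were higher with IOX5, against a background of 11.2% of all genes called higher. The ATPases *Psmc1*, *Psmc3*, *Psmc4*, *Psmc5* and *Psmc6*, the non-ATPases *Psmd1*, *Psmd3* and *Psmd12* and the activator *Psme3* were lower, against a background of 9.43% called lower. The members' share was 6.12% for higher calls, below the background, and 18.4% for lower calls, above it. No constitutive core subunit, assembly chaperone or inhibitor passed in either direction. In bulk RNA, fewer cells of a type and less RNA per cell cannot be told apart, and this holds for all values below.

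Small differences in one direction ran through most groups. Of the 49 tested members, 35 had a log2 fold change below 0 (71.4%, against 47.2% of all genes tested), and their median was −0.10, against 0.02 for all genes. The median was −0.22 for the ATPases (6 of 6 below 0), −0.15 for the non-ATPases (10 of 11), −0.08 for the constitutive core (11 of 14), −0.09 for the activators and the inhibitor (4 of 6), 0.02 for the assembly chaperones (2 of 7) and 0.38 for the immunoproteasome (1 of 3). Within the core, the median was −0.13 for the alpha and −0.05 for the beta subunits. Without IOX5 replicate 4, the median became −0.16 for all members, −0.15 for the core and −0.31 for the ATPases. These medians describe the lists and were not tested.

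**Figure D2:**
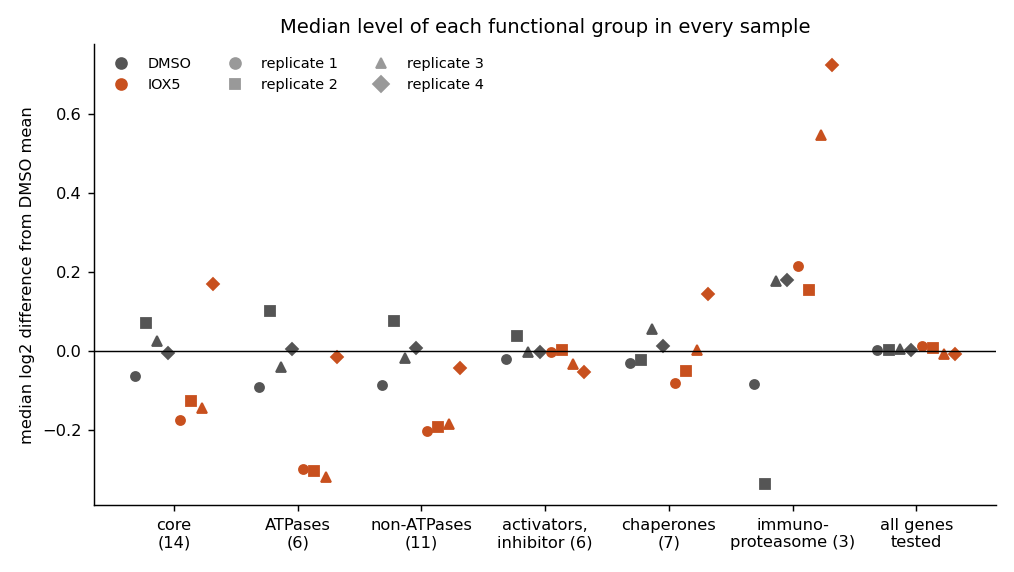
Median over the genes of each functional group (number of tested genes in parentheses) of the log2 difference in CPM from the DMSO mean, for each of the 8 samples. Colors mark the treatment and shapes the replicate number. For the ATPases, IOX5 replicates 1, 2 and 3 lie between −0.30 and −0.32 and replicate 4 at −0.02, while the 4 DMSO samples lie between −0.09 and 0.10.

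**Figure D3:**
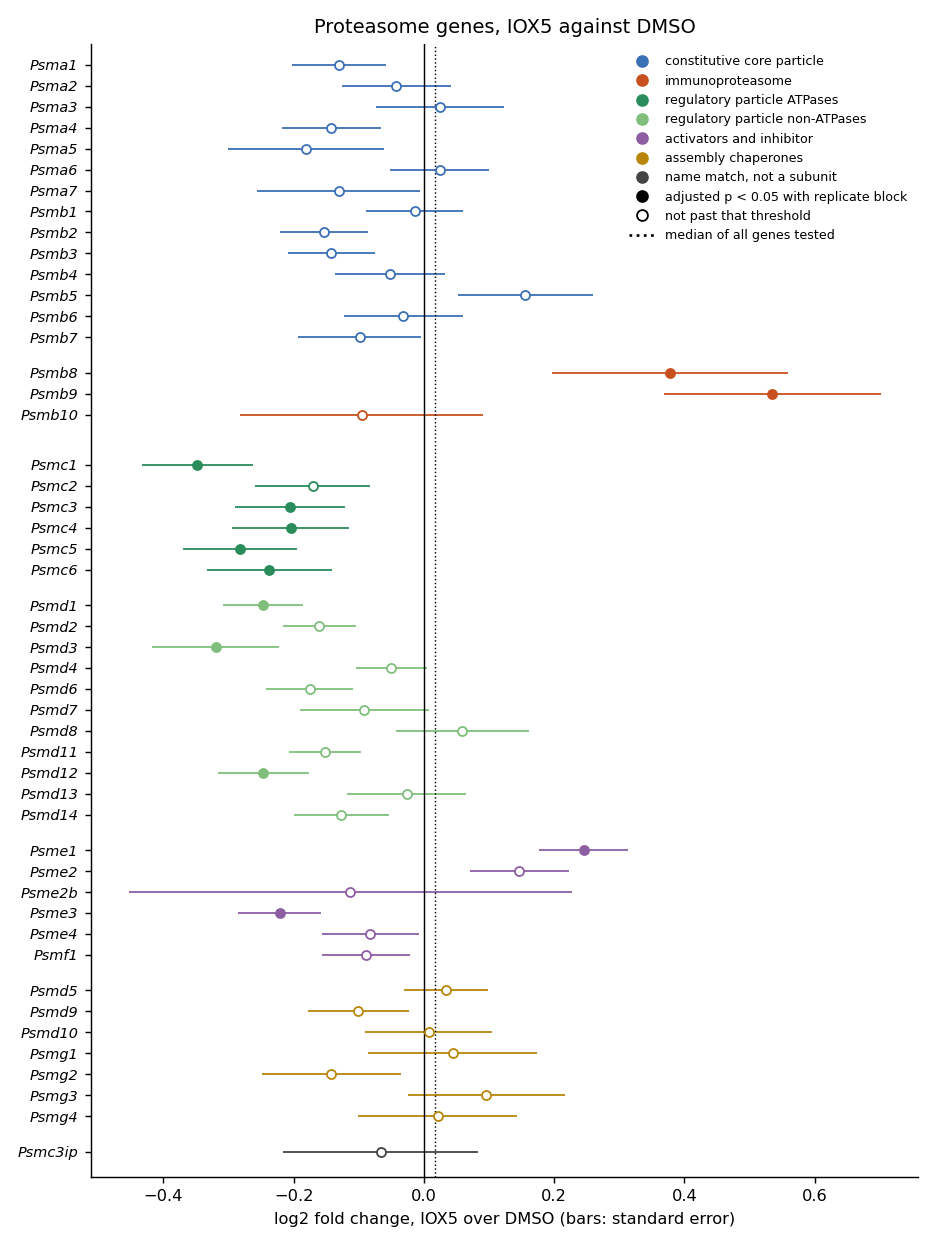
Log2 fold change of IOX5 over DMSO with its standard error for 48 tested members, ordered by functional group. Filled points passed an adjusted p of 0.05 with the replicate block and the dotted line is the median of all genes tested. All ATPases lie left of 0, and *Psmb8* and *Psmb9* lie farthest to the right. *Psma8*, whose standard error was 1.16, is not drawn.

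The immunoproteasome subunits did not move as a set. *Psmb9* (ENSMUSG00000096727, chr17:34181987-34187764 on the minus strand, GRCm38), the inducible counterpart of *Psmb6*, was measured at 25.1, 20.8, 30.9 and 29.9 CPM in DMSO replicates 1 to 4 and at 31.6, 33.3, 42.6 and 47.2 CPM in IOX5. Every IOX5 sample was above every DMSO sample. The log2 fold change was 0.54 ± 0.17 (SE), with an adjusted p of 0.123 without and 0.00117 with the block, and over 19 alternative fits the adjusted p ran from 0.00021 to 0.250. *Psmb8* (ENSMUSG00000024338, chr17:34197721-34201454 on the plus strand), which replaces *Psmb5*, stood at 114, 93.7, 136 and 145 CPM in DMSO and at 140, 121, 176 and 199 CPM in IOX5. It was higher with IOX5 in all 4 numbers, but the groups overlapped because numbers 3 and 4 were higher than 1 and 2 under both treatments. Its log2 fold change was 0.38 ± 0.18, with an adjusted p of 0.286 without and 0.00140 with the block (from 0.000312 to 0.494 over the 19 alternative fits). Without IOX5 replicate 4 it was 0.25 ± 0.18.

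The remaining inducible subunit, *Psmb10* (ENSMUSG00000031897, chr8:105935735-105938444, minus strand), behaved differently. It replaces *Psmb7* and was found at 49.1, 63.5, 53.5 and 55.9 CPM in DMSO and at 33.6, 61.5, 48.9 and 64.0 CPM in IOX5. The lowest and the highest of the 8 samples were both IOX5 samples, and the log2 fold change was −0.10 ± 0.19 (adjusted p = 0.814; −0.21 ± 0.19 without IOX5 replicate 4). Its difference from *Psmb9* was not tested.

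None of the constitutive catalytic subunits passed in either fit. *Psmb6*, the caspase-like subunit, had 142 to 163 CPM in DMSO and 129 to 172 CPM in IOX5 with a log2 fold change of −0.03 ± 0.09. *Psmb7*, the trypsin-like subunit, had 191 to 228 CPM and 179 to 234 CPM (−0.10 ± 0.09). *Psmb5*, the chymotrypsin-like subunit and the main target of proteasome inhibitor drugs, was measured at 96.8, 110, 108 and 110 CPM in DMSO and at 107, 112, 109 and 145 CPM in IOX5 (0.16 ± 0.10, adjusted p = 0.441). Without IOX5 replicate 4, the fold changes of *Psmb6*, *Psmb7* and *Psmb5* were −0.11 ± 0.08, −0.19 ± 0.07 and 0.04 ± 0.06.

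Because an inducible subunit takes the place of 1 constitutive subunit, the ratio of the 2 transcripts was compared sample by sample. The CPM ratio of *Psmb9* to *Psmb6* was 0.178, 0.129, 0.204 and 0.194 in DMSO and 0.245, 0.214, 0.303 and 0.276 in IOX5, so that the groups did not overlap. The geometric mean of the ratio was 1.48-fold higher with IOX5 (log2 difference 0.57; exact two-sided permutation p = 0.0286, which is the smallest that 70 assignments allow, and 0.0857 after adjustment over the 3 ratios). It was higher in 4 of 4 numbers, for which the smallest within-pair p is 0.125. The ratio of *Psmb8* to *Psmb5* was 1.17, 0.849, 1.26 and 1.32 in DMSO and 1.30, 1.07, 1.61 and 1.37 in IOX5, a log2 difference of 0.22 (exact permutation p = 0.343, adjusted 0.514) that was positive in 4 of 4 numbers and fell to 0.085 without DMSO replicate 2 and to 0.13 without IOX5 replicate 3. The ratio of *Psmb10* to *Psmb7* was 0.258, 0.279, 0.249 and 0.263 in DMSO and 0.188, 0.318, 0.265 and 0.274 in IOX5, a log2 difference of −0.03 (exact permutation p = 0.914). It was higher with IOX5 in 3 of 4 numbers, and the log2 difference was 0.12 without IOX5 replicate 1, the lowest of the 8 samples, and 0.0014 without DMSO replicate 2. On the scale of levels per length, *Psmb9* stood at 0.103 ± 0.0197 of *Psmb6* in DMSO and at 0.153 ± 0.0226 in IOX5 (SD, n = 4). *Psmb8* stood at 0.635 ± 0.116 of *Psmb5* in DMSO and at 0.740 ± 0.1225 in IOX5. *Psmb10* stood at 0.231 ± 0.0109 of *Psmb7* in DMSO and at 0.231 ± 0.0478 in IOX5.

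**Figure D4:**
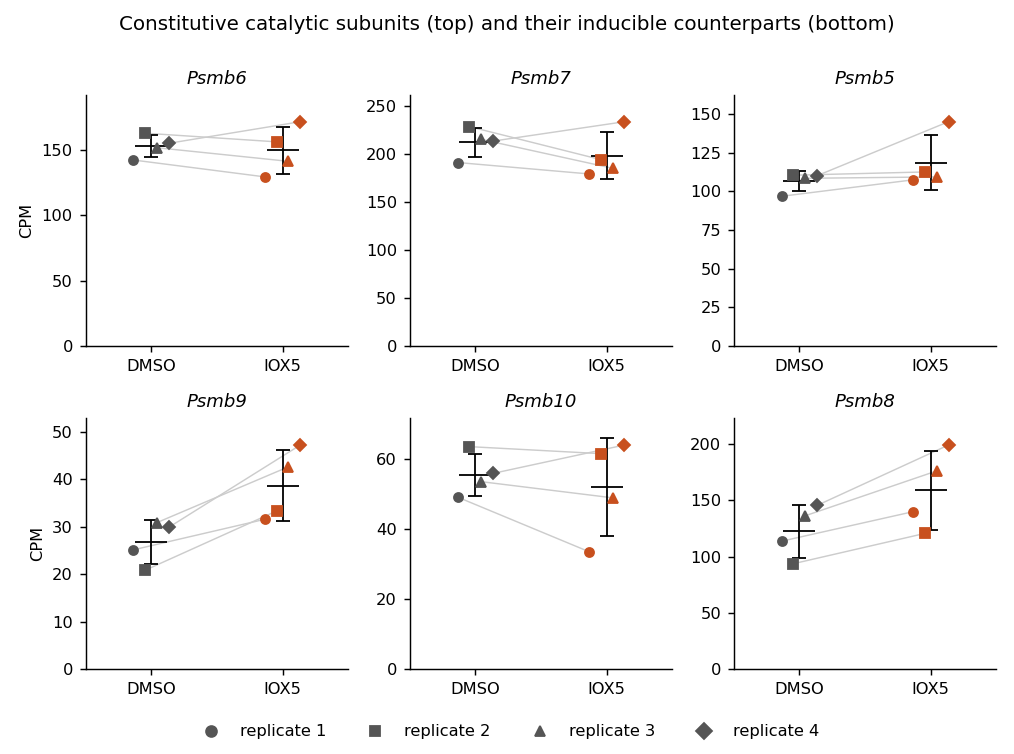
CPM of the constitutive catalytic subunits (top) and of the inducible subunit that takes the place of each (bottom) in every sample. Bars are the mean and standard deviation of 4 samples, and grey lines join samples with the same number. *Psmb9* and *Psmb8* are higher with IOX5 in all 4 numbers, whereas *Psmb10* is higher in 1 of 4.

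The activators form caps that open the core particle without ATP. *Psme1* and *Psme2* encode the subunits of the interferon-inducible cap that works with the immunoproteasome. *Psme1* (chr14:55578123-55581529, plus strand) had 106, 106, 116 and 121 CPM in DMSO and 127, 127, 134 and 142 CPM in IOX5. Every IOX5 sample was above every DMSO sample, the log2 fold change was 0.25 ± 0.07, and the adjusted p was 0.0959 without and 0.0127 with the block (0.0127 to 0.219 over 19 alternative fits). *Psme2* had 95.4, 104, 97.2 and 102 CPM in DMSO and 107, 107, 101 and 126 CPM in IOX5. It was higher in 4 of 4 numbers, yet the groups overlapped and it did not pass (0.15 ± 0.08, adjusted p = 0.319; 0.08 ± 0.05 without IOX5 replicate 4). The near-copy *Psme2b*, at 1.13 to 2.19 CPM in DMSO, could have received or lost reads of *Psme2* and is uncertain (−0.11 ± 0.34, and −0.07 ± 0.39 without IOX5 replicate 4).

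The nuclear activator *Psme3* (chr11:101316213-101323537, plus strand) went the other way. Its levels were 333, 347, 311 and 321 CPM in DMSO and 273, 269, 276 and 308 CPM in IOX5, with no overlap. The log2 fold change was −0.22 ± 0.06 and the adjusted p 0.103 without and 0.0345 with the block (0.0181 to 0.306 over the 19 fits). *Psme4*, which encodes the large activator linked to histone degradation, had 177 to 185 CPM in DMSO and 148 to 185 CPM in IOX5 (−0.08 ± 0.07, and −0.02 ± 0.05 without IOX5 replicate 4). *Psmf1*, the inhibitor, had 48.9 to 52.9 CPM and 43.7 to 50.8 CPM (−0.09 ± 0.07). The difference between *Psme1* and *Psme3* was not itself tested.

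The ATPases of the regulatory particle form the ring that unfolds substrates and were the group with the lowest median fold change. *Psmc1* (ENSMUSG00000021178, chr12:100110154-100123405, plus strand) was measured at 250, 298, 253 and 256 CPM in DMSO and at 189, 210, 199 and 232 CPM in IOX5. The groups did not overlap and the log2 fold change was −0.35 ± 0.08, with an adjusted p of 0.0688 without and 0.00426 with the block. *Psmc1* passed in 8 of the 19 alternative fits, whose adjusted p ran from 0.00299 to 0.192. *Psmc5* had 176, 196, 171 and 176 CPM in DMSO and 141, 142, 135 and 173 CPM in IOX5, where 3 IOX5 samples lay below all DMSO samples and replicate 4 within their range (−0.28 ± 0.09, adjusted p = 0.120, and 0.0164 with the block; 0.00473 to 0.290 over the 19 fits).

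The same arrangement was seen in *Psmc3*, with 281, 319, 302 and 308 CPM in DMSO and 248, 253, 242 and 307 CPM in IOX5 (−0.21 ± 0.08). In *Psmc4* the values were 187, 203, 193 and 203 CPM in DMSO and 159, 162, 158 and 204 CPM in IOX5 (−0.20 ± 0.09). *Psmc6* had 198, 231, 234 and 225 CPM and 183, 165, 185 and 221 CPM (−0.24 ± 0.10). In each of these genes IOX5 replicates 1, 2 and 3 were below every DMSO sample and replicate 4 was not. Their adjusted p was 0.217, 0.247 and 0.212 without the block and 0.0485, 0.0475 and 0.0419 with it, and over the 19 fits it ran from 0.0166 to 0.438, from 0.0126 to 0.476 and from 0.0189 to 0.418. *Psmc2* alone did not pass with the block (−0.17 ± 0.09, adjusted p = 0.321 without and 0.0892 with it; 0.0448 to 0.586 over the 19 fits).

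**Figure D5:**
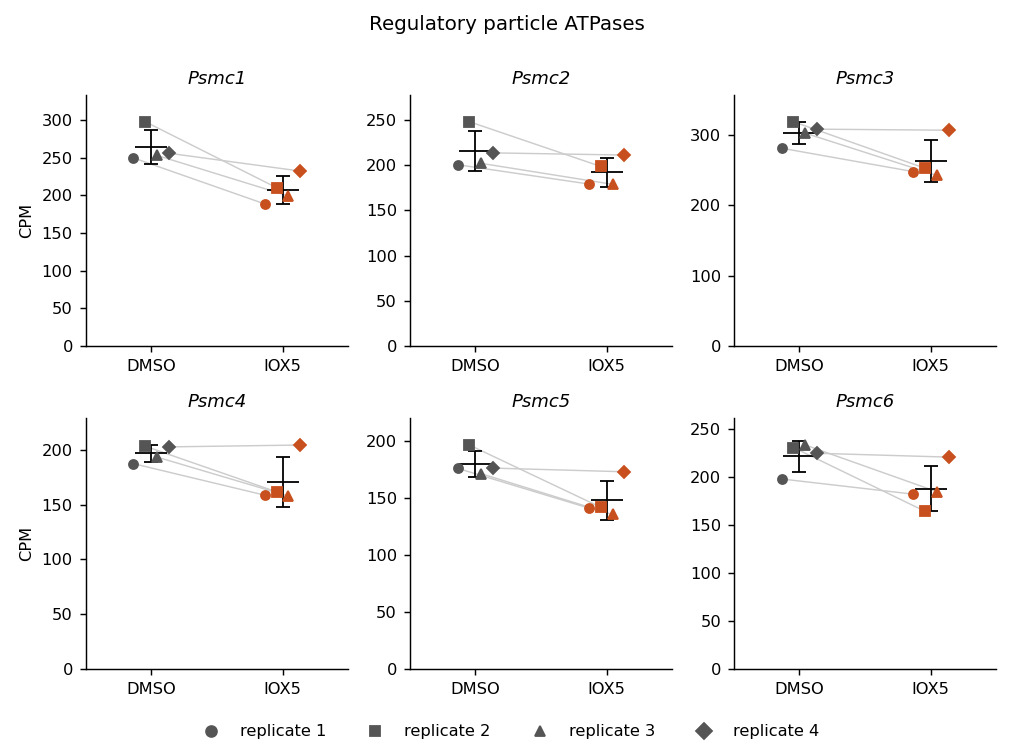
CPM of the 6 ATPase genes of the regulatory particle in every sample. Bars are the mean and standard deviation of 4 samples, and grey lines join samples with the same number. In *Psmc1* all IOX5 samples lie below all DMSO samples, and in the other 5 genes IOX5 replicates 1, 2 and 3 do.

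Among the non-ATPases, 6 of 11 had an unadjusted p under 0.05, each of them lower (background 11.2%), and 3 were lower with the block (background 9.43%). *Psmd1* (chr1:86064387-86139151, plus strand), a large scaffold of the base, stood at 344, 372, 348 and 348 CPM in DMSO and at 297, 287, 281 and 325 CPM in IOX5, without overlap (−0.25 ± 0.06, adjusted p = 0.0731, and 0.0191 with the block; 0.00618 to 0.222 over 19 alternative fits). *Psmd3* (chr11:98682554-98695979, plus strand), a lid subunit, had 250, 288, 227 and 222 CPM in DMSO and 180, 214, 188 and 208 CPM in IOX5, again without overlap (−0.32 ± 0.10, adjusted p = 0.115, and 0.00881 with the block; 0.00451 to 0.239). *Psmd12* (chr11:107479484-107504362, plus strand), another lid subunit, had 148, 165, 165 and 166 CPM in DMSO and 136, 130, 127 and 149 CPM in IOX5. Its ranges overlapped by the lowest DMSO and the highest IOX5 sample (−0.25 ± 0.07, adjusted p = 0.0996, and 0.0205 with the block; 0.0205 to 0.294).

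*Psmd2*, the most abundant of the non-ATPases per length, and *Psmd11*, the least abundant, also had groups that did not overlap but passed in neither fit. *Psmd2* had 582 to 644 CPM in DMSO and 528 to 564 CPM in IOX5 (−0.16 ± 0.06, adjusted p = 0.157), and *Psmd11* had 164 to 169 CPM and 145 to 162 CPM (−0.15 ± 0.06, adjusted p = 0.172). *Psmd14*, the deubiquitinase that removes ubiquitin chains before degradation, had 211 to 243 CPM in DMSO and 199 to 234 CPM in IOX5 (−0.13 ± 0.07). *Psmd4*, a receptor for ubiquitin chains, had 173 to 182 CPM and 160 to 180 CPM (−0.05 ± 0.06, and −0.08 ± 0.05 without IOX5 replicate 4). *Psmd8* was the single non-ATPase above 0 (0.06 ± 0.10), and without IOX5 replicate 4 it was at −0.0033 ± 0.10.

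In all, every IOX5 sample was above every DMSO sample for 2 of the 49 tested members (*Psmb9* and *Psme1*), against 5.98% of all genes. Every IOX5 sample was below every DMSO sample for 6 (*Psmc1*, *Psmd1*, *Psmd2*, *Psmd3*, *Psmd11* and *Psme3*), against 8.30% of all genes. With IOX5 replicate 4 left out, 25 members lay below every DMSO sample, or 51.0% of those tested, against 13.6% of all genes. That library was singled out on these same values, as the highest IOX5 sample for 87.8% of the members and 26.4% of all genes. Leaving it out therefore raises the members' share more than the background by construction, and the 2 shares are not comparable.

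The core particle and the assembly chaperones held no call. The alpha and beta core genes ranged from −0.18 ± 0.12 (*Psma5*) to 0.16 ± 0.10 (*Psmb5*), and in all 14 the highest IOX5 value was that of replicate 4. *Psma5* had 203, 256, 223 and 224 CPM in DMSO and 185, 176, 188 and 250 CPM in IOX5, where 3 samples were below DMSO and 1 was within its range. Without IOX5 replicate 4 its fold change was −0.31 ± 0.08. *Psma7*, the most abundant member per length, had 244 to 292 CPM in DMSO and 214 to 318 CPM in IOX5 (−0.13 ± 0.13, and −0.27 ± 0.08 without IOX5 replicate 4). Among the chaperones, which pair the alpha subunits (*Psmg* genes) or build the ATPase ring (*Psmd5*, *Psmd9*, *Psmd10*), the largest difference was that of *Psmg2*, with 36.9 to 40.3 CPM in DMSO and 28.7 to 40.9 CPM in IOX5 (−0.14 ± 0.11, adjusted p = 0.497; −0.24 ± 0.09 without IOX5 replicate 4). *Psmg3* had 14.8 to 15.8 CPM in DMSO and 13.5 to 19.1 CPM in IOX5 (0.10 ± 0.12), and *Psmg1* had 37.3 to 47.0 and 36.6 to 54.8 CPM (0.04 ± 0.13). Without IOX5 replicate 4, these were 0.01 ± 0.11 and −0.09 ± 0.09. *Psmc3ip* had 15.01 to 18.9 and 12.2 to 18.9 CPM (−0.07 ± 0.15).

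Taken number by number, the direction was shared by 3 of the 4 pairs. For number 1, 39 of the 49 tested members were lower with IOX5 (median log2 difference −0.09), for number 2, 40 (−0.19), and for number 3, 39 (−0.16). For number 4, 17 were lower (0.07). Over all genes tested, the medians for the 4 numbers lay between −0.00079 and 0.035. The ATPases were lower in all 6 genes for numbers 1, 2 and 3 and in 5 of 6 for number 4, where the median difference was −0.02.

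The number of calls also depended on which samples were used. Without IOX5 replicate 4, the quasi-likelihood test without a block called 7 members lower (*Psmc1*, *Psmc3*, *Psmc4*, *Psmc5*, *Psmd1*, *Psmd12* and *Psme3*), against a background of 2.64%, and none higher, against 1.03% (with all samples, 2 were higher at an unadjusted p under 0.05 and DESeq2 called 2). In the fit with the block, leaving out number 4 gave 13 lower and 3 higher members, against 8.48% and 10.9% of all genes. The lower ones were the 9 members named above and *Psma5*, *Psma7*, *Psmb3* and *Psmc2*. Since IOX5 replicate 4 was singled out for its high values in these genes, leaving it out favours lower calls among the members over the background. Leaving out number 1 gave 2 lower and 2 higher, against 5.28% and 8.07%, leaving out number 2 gave 5 and 3, against 8.2% and 9.03%, and leaving out number 3 gave 1 and 2, against 3.23% and 5.14%. *Psmb8*, *Psmb9* and *Psmc1* passed in all 4 of these fits, which were chosen after seeing the data.

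*Psma8*, the alpha subunit that stands in for *Psma7* in the testis proteasome, was set apart by the replicate numbers instead of the treatment. It had 18, 13, 237 and 245 reads in DMSO replicates 1 to 4 and 6, 24, 247 and 228 reads in IOX5, or 1.27, 1.01, 19.3 and 18.9 CPM and 0.480, 2.13, 19.3 and 19.8 CPM. Numbers 3 and 4 were thus at one level and numbers 1 and 2 at a far lower one under both treatments, and the treatment difference was 0.05 ± 1.16 (−0.46 ± 1.33 without IOX5 replicate 4). This pattern was noticed after the values were seen. All libraries numbered 3 and 4 were more than 4-fold above all numbered 1 and 2 in 13 of the 12405 genes tested (0.105%), and the reverse held in 29 (0.234%). Of the tested members, *Psma8* was the only one with either pattern. Its neighbours on the chromosome differed far less between the numbers, as *Ss18* had 105 to 118 CPM in numbers 1 and 2 and 122 to 128 CPM in numbers 3 and 4, and *Taf4b* had 18.1 to 28.1 CPM and 25.9 to 30.6 CPM.

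Promoters are shown for members that were called in the paired fit, in either direction. In RefSeq (GRCm38.p6) windows from 250 bases before to 50 bases after the start site, 45 windows of 42 members were searched on both strands for the letters CCAAT (the CCAAT box, bound by NF-Y), TGACNNNGC (the antioxidant response element, bound by NRF1 and NRF2), ACGTG (the core of the hypoxia response element), GAAA, any 2 bases and GAAA (an interferon-stimulated response element) and TTCNNNGAA (a gamma-activated site). No promoter entry was matched for *Psma8*, *Psmb1*, *Psmb2*, *Psmb7*, *Psmc3*, *Psmd3*, *Psmd7* and *Psmg2*. CCAAT was found in 33.3% of the members' windows and 37.4% of all 32851 windows, TGACNNNGC in 13.3% and 12.4%, ACGTG in 17.8% and 19.6%, the interferon-stimulated response element in 11.1% and 3.44%, and TTCNNNGAA in 6.67% and 8.30%. The interferon-stimulated response element was in 5 of the 45 windows. ACGTG and its reverse complement overlap where the letters are CACGTG.

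The stretches before the start of 2 ATPase genes that fell with the block are given to show what such a promoter holds, with the matched letters in capitals. The one of *Psmc1* (chr12:100109952-100110153, plus strand) has CCAAT 175 bases before the start site, and the one of *Psmc6* (chr14:45329574-45329787, plus strand) has the antioxidant response element on the opposite strand 227 bases before it.
Psmc1: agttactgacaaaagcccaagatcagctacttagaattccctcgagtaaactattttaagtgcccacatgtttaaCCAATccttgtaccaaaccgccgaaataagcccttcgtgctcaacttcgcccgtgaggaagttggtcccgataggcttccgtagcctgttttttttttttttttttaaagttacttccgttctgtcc
Psmc6: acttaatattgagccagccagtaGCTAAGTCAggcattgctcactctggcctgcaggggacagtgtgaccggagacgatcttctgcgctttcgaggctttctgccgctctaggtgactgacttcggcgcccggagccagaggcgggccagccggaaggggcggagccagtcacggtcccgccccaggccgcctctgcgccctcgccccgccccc

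For the other members that passed with the block, 30 bases around a match show where the letters lie. *Psmb8* (chr17:34198087-34198116) holds a gamma-activated site 97 bases before its RefSeq start site, and *Psmb9* (chr17:34187322-34187351, minus strand) the reverse complement of CCAAT 8 bases before. *Psme1* (chr14:55578493-55578522) holds the reverse complement of the interferon-stimulated response element after its RefSeq start site. For *Psmb8*, *Psmb9* and *Psme1* the RefSeq start site lies inside the GENCODE gene span given above. Their matches therefore lie within the annotated genes and not upstream of them. *Psmd12* (chr11:107479278-107479307) holds the antioxidant response element on the opposite strand 247 bases before, and *Psme3* (chr11:101316156-101316185) the hypoxia response core on the opposite strand 44 bases before, overlapping a match on the plus strand. *Psme3* also has the reverse complement of CCAAT 14 bases before its start site.
Psmb8: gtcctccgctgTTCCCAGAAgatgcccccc
Psmb9: cgcgcagccgctgATTGGaaagccgagccc
Psme1: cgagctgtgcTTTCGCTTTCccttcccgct
Psmd12: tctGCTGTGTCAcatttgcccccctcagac
Psme3: cggctgcgcagggCACGTgctcatcctccc
A match describes the letters in the window and is not a measured binding site. The windows of *Psmc4*, *Psmc5* and *Psmd1*, which also fell with the block, held none of the 5 motifs.

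Genes that work with the proteasome were described from lists of related genes. Of 16 tested genes for other components and cofactors, such as ubiquitin shuttles and the deubiquitinase *Usp14*, none passed without the block (7 had an unadjusted p under 0.05, all lower, background 11.2%, and DESeq2 and voom each called *Usp14*) and 3 fell with it (*Usp14*, *Ubqln4* and *Zfand5*; background 9.43%). *Usp14*, which trims ubiquitin chains at the regulatory particle, stood at 269, 300, 285 and 283 CPM in DMSO and at 226, 215, 244 and 258 CPM in IOX5, with no overlap (−0.27 ± 0.07, adjusted p = 0.0781, and 0.0149 with the block; 0.0129 to 0.252 over 19 alternative fits). *Ubqln1*, a ubiquitin shuttle, also had groups without overlap but passed in neither fit (−0.18 ± 0.06, adjusted p = 0.144). The median of the list was −0.15, and 12 of its 16 genes were below 0.

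NRF1 (*Nfe2l1*) is the transcription factor that is processed to induce proteasome genes when proteasome activity is short. In its pathway 0 of 12 tested genes passed without the block (5 had an unadjusted p under 0.05, 4 of them lower, background 11.2%, DESeq2 called *Nploc4* and *Vcp*, and voom called *Nploc4* and *Nfe2l1*) and 3 fell with it, *Nfe2l1*, *Vcp* and *Nploc4* (background 9.43%). *Nfe2l1* itself was measured at 242, 246, 223 and 224 CPM in DMSO and at 196, 224, 179 and 176 CPM in IOX5, lower in all 4 numbers (−0.27 ± 0.08, adjusted p = 0.125, and 0.00959 with the block; 0.00132 to 0.266 over the 19 fits). In contrast to most proteasome genes, its IOX5 replicate 4 was the lowest of the IOX5 samples. *Vcp*, the segregase that extracts ubiquitinated proteins, had 737 to 844 CPM in DMSO and 644 to 711 CPM in IOX5 (−0.21 ± 0.06, adjusted p = 0.108, and 0.0397 with the block; 0.0219 to 0.360). *Nploc4*, a cofactor of *Vcp*, had 191 to 205 CPM and 160 to 174 CPM (−0.23 ± 0.05, adjusted p = 0.0590, and 0.0186 with the block; 0.00206 to 0.204). The groups did not overlap for *Vcp* and *Nploc4*. The median of the list was −0.08.

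Ubiquitin genes and the enzymes that activate and first transfer ubiquitin held no call in either fit among 11 tested genes (1 had an unadjusted p under 0.05 and DESeq2 and voom called none). The smallest p values were those of the conjugating enzyme *Ube2d3* (−0.15 ± 0.06, adjusted p = 0.227) and the activating enzyme *Uba1* (−0.16 ± 0.07, adjusted p = 0.252). The median of the list was −0.06.

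Peptides made by the immunoproteasome are carried by *Tap1* and *Tap2* to MHC class I, whose light chain is *B2m*. Of 13 tested genes for peptide loading and its interferon regulators, *B2m* passed without the block, and *B2m*, *Tap1* and *Tap2* rose with it (background 0.774% and 11.2%). *B2m* was measured at 276, 282, 319 and 328 CPM in DMSO and at 394, 556, 414 and 452 CPM in IOX5, with no overlap (0.59 ± 0.11, adjusted p = 0.0422, and 0.000807 with the block). *B2m* passed in 12 of the 19 alternative fits, over which its adjusted p ran from 2.44e-05 to 0.120, the last without DMSO replicate 4. *Tap2* had 131, 107, 135 and 133 CPM in DMSO and 161, 139, 198 and 191 CPM in IOX5, also without overlap (0.45 ± 0.12, adjusted p = 0.0917, and 0.000802 with the block; 3.16e-05 to 0.204). *Tap1* had 54.6 to 61.0 CPM and 59.9 to 81.5 CPM (0.33 ± 0.10, adjusted p = 0.105, and 0.00685 with the block; 0.00335 to 0.252). The interferon regulator *Irf1* (45.2 CPM in DMSO and 49.3 CPM in IOX5) did not pass, and the median of the list was 0.07.

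*Tap1* lies beside *Psmb9* on the opposite strand, and their exons overlap by 212 bases. Over all 8 libraries, *Psmb9* had 3249 reads and *Tap1* 6493. The strand setting of the counting is not given in the sources used here. The antisense pair *Xist* and *Tsix* had 105071 and 21 reads. This split cannot show whether strands were kept apart, because counting without strand can leave out reads on bases that both genes share. The effect of the overlap on the counts of *Psmb9* and *Tap1* was not tested. Exons of *Psmb7*, *Psmc3*, *Psmd13* and *Psmc3ip* overlap opposite genes with 1659 to 5912 reads in the same way.

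Markers of other blood cells differed between the groups as well. The 6 macrophage markers summed to between 148 and 206 CPM in DMSO and between 225 and 500 CPM in IOX5. All 5 that could be tested had a higher level with IOX5 and 2 rose with the block (*Adgre1* and *Mrc1*; background 11.2% of all genes). The complement gene *C1qa* was below 1 CPM in every library. The highest sum was in IOX5 replicate 2 and the lowest of the IOX5 group in replicate 4. *Psmb8*, *Psmb9* and *Psme1* had their highest IOX5 level in replicate 4, as had 43 of the 49 tested members, whether higher or lower with IOX5. Taken number by number, the log2 difference was largest in number 2 for *Psmb9* (0.67) and for *Adgre1* (1.78). It was largest in number 4 for *Psmb8* (0.45) and in number 1 for *Psme1* (0.27). Megakaryocyte markers summed to 26.1 to 71.0 CPM and 86.2 to 140 CPM (3 of 5 rose with the block). The sums of mast cell and basophil markers (126 to 486 CPM and 249 to 749 CPM; 5 of 5 rose with the block) and of neutrophil markers (495 to 1189 CPM and 640 to 1761 CPM; 4 of 6) overlapped between the groups. Of the erythroid markers 1 of 4 tested rose with the block. Of the dendritic cell markers it was 2 of 2 tested (*Flt3* and *Itgax*), and of the stromal markers 1 of 2 tested (*Pecam1*). The background of 11.2% holds for all these counts. The other 3 of the 5 dendritic cell markers (*Siglech*, *Zbtb46* and *Xcr1*) were below 1 CPM in every library. So were 3 of the 6 stromal markers (*Cxcl12*, *Pdgfra* and *Cdh5*), and the stromal *Col1a1* had a log2 fold change of −0.29 ± 0.32. Without the block, only *Vwf* of these markers passed the quasi-likelihood test (adjusted p = 0.0442, background 0.774%). DESeq2 and voom also called *Adgre1*, *Mrc1* and *Ly6g*. The T cell receptor complex genes *Cd3d*, *Cd3e* and *Cd3g* and the B cell genes *Ms4a1* and *Pax5* were below 1 CPM in every library. In all, 5 of the 6 T cell markers and 4 of the 5 B cell markers were below 1 CPM throughout, and the 2 others, *Lck* and *Cd79b*, had means of 5.74 and 4.59 CPM in DMSO and 6.39 and 5.02 CPM in IOX5 and passed in neither fit. The part of these cells in the differences of proteasome genes was not tested.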

How the data were processed

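Per the paper's methods and the labels, the authors made directional poly(A) libraries from total RNA, sequenced single-end reads, trimmed them with Cutadapt 1.18, mapped them to GRCm38 with HISAT2 2.2.1 and deposited raw counts per Ensembl gene from HTSeq 2.0.1, without normalization. The annotation release and strandedness used for counting are not given in the sources used here. Identifiers were matched to GENCODE M21 (54809 of 54838 genes). The 5 summary lines per file (20.6% to 22.6% of reads) were left out.

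IOX5 was compared with DMSO by edgeR 4.0.16 (R 4.3.3; TMM factors, filterByExpr, quasi-likelihood test, Benjamini-Hochberg over 12405 genes, adjusted p under 0.05). Deviations from the group means were correlated between samples of equal number (correlations 0.758, 0.744, 0.732 and 0.636 for numbers 1 to 4), which is where the pairing comes from, since the labels do not explain the numbers. Between different numbers the correlation reached 0.685. Values with this number as a block are therefore given as well. The alternatives were DESeq2 1.42.0, limma 3.58.1 voom (sample weights), upper-quartile or RLE factors, at least 10 counts in every sample or no filter, an adjusted p under 0.1 and each sample left out. Ratios of 2 genes used log2 CPM with a prior count of 2 and exact permutation. TPM was computed on the principal transcript of each gene, the longest where there were several. The fits by edgeR without and with the block, DESeq2 and voom were run on simulated counts with 200 changed genes. The simulation had no effect of the replicate number, and the ratios, TPM and promoter matches were not part of it.

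The genes and lists were chosen with earlier results of these data known. Named genes are the catalytic subunits and their inducible counterparts, members called with or without the block, the largest change and the highest and lowest level per length of each functional group, the activators and the inhibitor, members that were not tested, and the 2 genes with the smallest p of each related list. Others were chosen after their values were seen.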

Additional observations from a re-analysis of the deposited data

Results flagged for a closer look

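Dixon's ratio is the gap from the highest or lowest sample to the nearest of the others, as a share of the whole range. Among 104 groups of 4 samples (DMSO or IOX5, for 49 genes and 3 ratios), 14 were above its 95% critical value. Chance alone gives about 1 in 20 where groups are independent. These are not, since they come from the same 8 libraries and from related genes, so the count cannot be set against that share. In 8 of the 14 flagged groups the sample was IOX5 replicate 4, at the high end. These were *Psme3* (308 CPM against 269 to 276 CPM in the others, ratio 0.838), *Psma2* (330 CPM against 259 to 269 CPM, 0.857), *Psma4* (155 CPM against 137 to 140 CPM, 0.8293), *Psmb4* (354 CPM against 283 to 291 CPM, 0.893), *Psmb5* (145 CPM against 107 to 112 CPM, 0.864), *Psmc3* (307 CPM against 242 to 253 CPM, 0.841), *Psmc4* (204 CPM against 158 to 162 CPM, 0.918) and *Psmc5* (173 CPM against 135 to 142 CPM, 0.830).

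The other IOX5 group was that of *Psmd2*, in which replicate 2 was high (564 CPM against 528 to 532 CPM, ratio 0.900). In DMSO, replicate 1 was low for *Psmb5* (96.8 CPM against 108 to 110 CPM, 0.850), *Psmd12* (148 CPM against 165 to 166 CPM, 0.901) and *Psmg4* (14.2 CPM against 18.8 to 19.4 CPM, 0.870). *Psmc1* was high in DMSO replicate 2 (298 CPM against 250 to 256 CPM, 0.870), and *Psmg2* was high in DMSO replicate 3 (40.3 CPM against 36.9 to 37.3 CPM, 0.877). The cause of these gaps was not tested.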

How the results depend on the processing

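Without the block, 0 members were called in either direction by edgeR with TMM, RLE or upper-quartile factors, without a filter and with at least 10 counts in every sample. The replicate block gave 3 higher and 9 lower, DESeq2 2 and 5, voom 0 and 4, and an adjusted p under 0.1 gave 1 and 3. Leaving out samples (or, with the block, numbers, a choice made after seeing the data) gave between 0 and 3 higher and between 0 and 13 lower, and between 6 and 25 members whose IOX5 samples were all below DMSO. The highest counts came without IOX5 replicate 4 or number 4. The cause was not tested, though with fewer samples groups overlap less by construction.

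The medians of all members, the core, the ATPases, the non-ATPases and the immunoproteasome kept their sign throughout. That of the activators and inhibitor was −0.0552 with voom and ran from −0.112 to 0.0187 with samples left out, and that of the assembly chaperones was −0.0114 with voom and ran from −0.0798 to 0.0634. The log2 ratio of *Psmb9* to *Psmb6* was the same within pairs with the replicate block (0.568), where 4 pairs cannot reach a p under 0.05, and ran from 0.425 to 0.656 with a sample left out. That of *Psmb8* to *Psmb5* ran from 0.0848 to 0.326, and that of *Psmb10* to *Psmb7* from −0.131 to 0.121.

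Of the 930 values of single members under the alternatives, 825 kept direction and side of the threshold, 61 passed it in addition and 44 changed sign, in 16 members that were not called. With samples left out, the log2 fold change ran from −0.403 to 0.153 for *Psme2b*, −0.0843 to 0.0696 for *Psmd10*, −0.00526 to 0.0634 for *Psmd5*, −0.0898 to 0.117 for *Psmg1*, −0.00651 to 0.176 for *Psmg3*, −0.074 to 0.0718 for *Psmg4*, −0.0866 to 0.0811 for *Psma3*, −0.0435 to 0.0669 for *Psma6*, −0.0875 to 0.0164 for *Psmb1*, −0.135 to 0.00181 for *Psmb4*, −0.105 to 0.0319 for *Psmb6*, −0.231 to 0.0666 for *Psmb10*, −0.137 to 0.0554 for *Psmc3ip*, −0.111 to 0.0343 for *Psmd13*, −0.00327 to 0.142 for *Psmd8* and −0.459 to 0.569 for *Psma8*. With voom it was −0.0114 for *Psmg1*, −0.0151 for *Psmg4*, −0.00311 for *Psma3* and −0.711 for *Psma8*, and with upper-quartile factors it was 0.0036 for *Psmb1*.

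Genes at a few CPM, such as *Psme2b*, are limited by depth, and all are limited by 4 samples a group.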

Other observations

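The letters of an interferon-stimulated response element were found in the promoter windows of 5 members, *Psmb3*, *Psmd4*, *Psmd9*, *Psme1* and *Psmg4*. Their log2 fold changes were −0.14, −0.05, −0.10, 0.25 and 0.02. The 3 immunoproteasome genes held none in their windows. Of the windows of the constitutive core genes, 50% held CCAAT and 33.3% ACGTG, and of those of the regulatory particle 26.7% and 6.67%. Among the genes whose names match the rule without being protein-coding, the pseudogene *Psmb6-ps2* had 2 reads over all 8 libraries, and *Psmb5-ps*, *Psmb6-ps* and *Psmb7-ps2* had 0.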
